A study of Mus musculus with 3 samples.

Results

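Interferon-stimulated genes (ISGs) are the genes that cells transcribe once an interferon receptor has been engaged. The set described here is a list of 39 mouse gene symbols. Of these, 38 were found among the 31053 genes counted in all 3 libraries, and *Mx2* had no entry. In the study, human split-thickness skin was placed under the skin of mice, and cultured bone marrow cells were given active vitamin D. Each of the 3 conditions was sequenced as 1 droplet library (10x Genomics, 3′ chemistry). The hSTSG library holds cells of human split-thickness skin grafts taken out of wild-type C57/BL6 mice after 14 days, digested with collagenase IV and pooled from 5 mice. The 2 cultures began as marrow of C57/BL6 mice kept for 7 days in granulocyte-macrophage colony-stimulating factor (GM-CSF). Co-Mac was left untreated, and VD-Mac received 1,25-dihydroxycholecalciferol (VD3) at 1 μM for 24 h.

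Interferons are secreted when cells sense foreign or misplaced nucleic acid, or when lymphocytes are activated. Type I interferons signal through the receptor chains *Ifnar1* and *Ifnar2*, and STAT2 and IRF9 take part in binding the interferon-stimulated response element (ISRE). Interferon gamma signals through *Ifngr1* and *Ifngr2* to the gamma-activated site (GAS), and many ISGs answer to both. In macrophages and other phagocytes the products trap, modify or degrade viral RNA and proteins, attack the membranes around intracellular microbes, and sense nucleic acids.

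Each captured RNA molecule carries a unique molecular identifier (UMI), so UMIs count molecules and not copies made by PCR. Cells with at least 300 genes, under 100000 gene UMIs and under 10% mitochondrial UMIs were kept. This left 7257 Co-Mac cells, 8825 VD-Mac cells and 2144 hSTSG cells, with median depths of 15804, 12089 and 6637.5 UMIs per cell. Kept barcodes shared between libraries came to 15 for the 2 cultures, 3 for Co-Mac and hSTSG, and 6 for VD-Mac and hSTSG. The matrices list mouse genes only, and whether reads of human graft cells were counted under them was not tested. By qPCR in the study, human Alu DNA in the grafts fell by several orders of magnitude over 14 days. Levels are given as UMIs per 1000000 gene UMIs summed over the cells named (CPM). Each molecule is counted at its 3′ end, so levels were not divided by gene length. Intervals in parentheses are exact at 95% and cover counting error only. With 1 library per group, there is no measure of the spread between animals or dishes, and no test is given.

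The labels call both cultures macrophages, and their markers were mixed. The 8 macrophage markers (*Adgre1*, *Cd68*, *Csf1r* and others) summed to 951 CPM in Co-Mac and 1160.2 CPM in VD-Mac, against 6224 CPM in hSTSG. The 6 markers of mature dendritic cells (*Ccr7*, *Fscn1*, *Ccl22* and others) summed to 5170.1, 3578 and 225 CPM, with *Ccl17* the most abundant in both cultures. Neutrophil markers summed to 5310 CPM in Co-Mac, 6093 CPM in VD-Mac and 8689 CPM in hSTSG, with *S100a8* the most abundant in each. Both cultures therefore held cells with dendritic and neutrophil transcripts beside macrophage-like cells. The graft library also carried 9844 CPM of 6 fibroblast markers, which reached 2.93 CPM in Co-Mac and 0.172 CPM in VD-Mac.

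The summed ISG level was lowest in the untreated culture and highest in the graft. It stood at 648 CPM in Co-Mac (643 to 652), 912 CPM in VD-Mac (906 to 917) and 1751 CPM in hSTSG (1733 to 1768). The ratio of VD-Mac to Co-Mac was 1.41 (1.40 to 1.42). For hSTSG it was 2.70 over Co-Mac (2.67 to 2.74) and 1.92 over VD-Mac (1.90 to 1.94). The 3 libraries differed in cell types, depth and preparation. With the mean class make-up of both cultures, the log2 ratio of VD-Mac over Co-Mac was 0.37 in place of 0.49. This value leaves out cells named for proliferation, 1500 in Co-Mac with 25.3% of its ISG UMIs and 1 in VD-Mac. It is therefore not adjusted for the whole make-up of the cultures. The part of depth and preparation in the ratios, and that of cell types in the graft ratios, was not tested. To compare cells at equal depth, 2000 UMIs were drawn at random from each cell and shallower cells were left out (thinning). Then 67.2% of Co-Mac cells held an ISG UMI (66.0 to 68.3%), against 76.5% of VD-Mac cells (75.5 to 77.5%) and 80.1% of hSTSG cells (78.2 to 81.9%). In all kept cells at full depth they came to 92.4%, 89.4% and 91.0%. At equal depth the order of the shares was therefore that of the summed levels, and at full depth it was not.

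A few genes gave a large share of the signal in the cultures. *Bst2* alone gave 30.1% of the ISG UMIs of Co-Mac, and *Bst2*, *Gbp2* and *Ifi35* together 48.7%. In VD-Mac *Gbp2* led with 22.7%, and *Gbp2*, *Bst2* and *Gbp5* gave 53.5%. The graft signal was spread more widely, with 33.9% in *Bst2*, *Ifi204* and *Isg15*. Of the 38 genes, 24 reached 20 CPM in hSTSG, 10 did so in Co-Mac and 11 in VD-Mac. The median gene stood at 5.57 CPM in Co-Mac, 5.20 CPM in VD-Mac and 25.8 CPM in hSTSG.

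**Figure D1:**
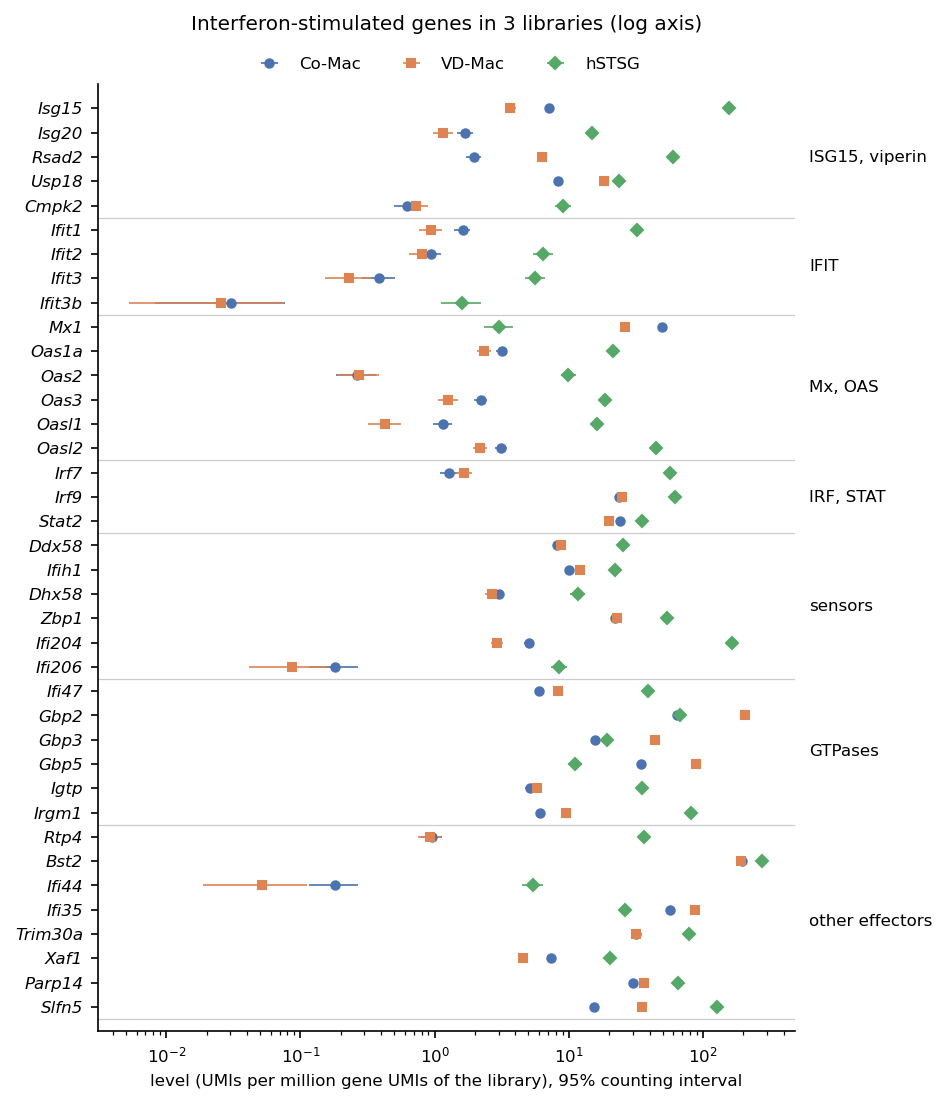
Level of each of the 38 ISGs in the untreated culture (Co-Mac), the VD3-treated culture (VD-Mac) and the graft library (hSTSG), on a log axis, grouped by role. Points are CPM over all kept cells of 1 library each, and lines are exact 95% Poisson intervals.

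Counted gene by gene at a fixed size, 5 of the 38 ISGs separated the 2 cultures. A gene was called where its levels differed by a factor of 2 or more and the greater of them reached 10 CPM. Between VD-Mac and Co-Mac, 5 ISGs were higher, where 2.16% of all genes at that level were, and 0 were lower, where 4.63% of all genes were. The 5 were *Gbp2*, *Gbp3*, *Gbp5*, *Slfn5* and *Usp18*, out of 14 ISGs at that level. Of them, only *Usp18* was under 10 CPM in Co-Mac. With no minimum level 3 ISGs were lower, and at 1.5-fold 1 was (*Mx1*), so the count of lower genes depended on the rule. The median log2 ratio over all 38 ISGs, with 1 CPM added, was -0.01, and that over all genes detected was -0.01. Over the 14 ISGs at the level for a call it was 0.26, beside -0.10 over all genes at that level. The median thus depended on whether genes near 0 were counted.

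Against the graft, most ISGs were called. Over Co-Mac, 24 ISGs were higher in hSTSG, where 24.7% of all genes at that level were, and 3 were lower, where 16.6% were. Those 3 were *Mx1*, *Ifi35* and *Gbp5*. Over VD-Mac, 21 ISGs were higher in hSTSG beside 28% of all genes, and 5 were lower beside 15.7%. To the 3 lower genes this added *Gbp2* and *Gbp3*. Levels of 10 CPM were reached by 13 ISGs in Co-Mac, 14 in VD-Mac and 30 in hSTSG. Most genes called higher in hSTSG therefore met the level only through the graft. Of those called over Co-Mac, only *Irf9*, *Ifih1*, *Zbp1*, *Trim30a*, *Parp14* and *Slfn5* reached it in Co-Mac. Of those called over VD-Mac, only *Irf9*, *Zbp1*, *Trim30a* and *Slfn5* reached it in VD-Mac. The median log2 ratio over the 38 ISGs was 2.34 over Co-Mac and 2.07 over VD-Mac, beside 0.08 and 0.11 over all genes. Over the 31 ISGs at the level for a call it was 1.66 and 1.83, beside 0.07 and 0.20 over all genes at that level.

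The guanylate-binding proteins carried the difference between the cultures. These interferon-inducible GTPases assemble on membranes around intracellular bacteria and parasites. *Gbp2* stood at 64.0 CPM in Co-Mac, 207 CPM in VD-Mac and 67.8 CPM in hSTSG, a VD-Mac to Co-Mac ratio of 3.24 (3.16 to 3.32). *Gbp3* stood at 15.8, 43.8 and 19.2 CPM, a ratio of 2.78 (2.64 to 2.93). *Gbp5*, which also promotes inflammasome assembly, stood at 34.3, 88.9 and 11.2 CPM, a ratio of 2.60 (2.51 to 2.69). All 3 were highest in VD-Mac, and the graft level of *Gbp5* was under that of both cultures. The immunity-related GTPases, which act on the vacuoles of intracellular microbes, had another pattern. *Irgm1* stood at 6.11, 9.47 and 81.9 CPM, *Igtp* at 5.13, 5.84 and 35.2 CPM, and *Ifi47* at 6.02, 8.34 and 39.03 CPM in Co-Mac, VD-Mac and hSTSG. These 3 were under 10 CPM in both cultures and highest in the graft.

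Without the 3 guanylate-binding proteins, a choice made after seeing the data, the summed level was 534 CPM in Co-Mac and 572 CPM in VD-Mac, a ratio of 1.07 (1.06 to 1.08). The graft sum without them was 1652 CPM, 3.097 times Co-Mac (3.06 to 3.14) and 2.89 times VD-Mac (2.85 to 2.93). Most of the higher sum in VD-Mac therefore lay in 3 genes, while the graft sum did not rest on them. When *Bst2* was taken out as well, the log2 ratio of hSTSG over VD-Mac was 1.86, beside 0.94 with all members.

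*Isg15* was low in both cultures and high in the graft. It encodes a ubiquitin-like protein that is joined to other proteins, and stood at 7.08 CPM in Co-Mac (6.64 to 7.55), 3.68 CPM in VD-Mac (3.34 to 4.04) and 155 CPM in hSTSG (150.3 to 161). Its level in VD-Mac was 0.519 times that in Co-Mac (0.462 to 0.582), both under 10 CPM. *Usp18*, the protease that removes ISG15 and dampens receptor signaling, stood at 8.25, 18.3 and 23.5 CPM, 2.22 times higher in VD-Mac than in Co-Mac (2.06 to 2.39). *Usp18* was thus called higher in VD-Mac and was within 2-fold between VD-Mac and hSTSG, while *Isg15* was too low in both cultures for a call. *Rsad2* (viperin), an enzyme that makes a chain-terminating nucleotide, stood at 1.95, 6.27 and 59.3 CPM, a culture ratio of 3.21 (2.78 to 3.71) at levels under the minimum for a call.

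The IFIT proteins bind foreign RNA ends, and their genes were nearly silent in culture. Summed over 4 genes they came to 2.97 CPM in Co-Mac, 1.99 CPM in VD-Mac and 46.0 CPM in hSTSG. *Ifit1* was the most abundant of them in each library, with 1.61, 0.936 and 32.4 CPM. Its graft level was 20.1 times that of Co-Mac (17.2 to 23.5).

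Among the genes of the Mx and oligoadenylate synthetase families, 1 ran against all others. *Mx1*, a gene of the Mx GTPase family, stood at 49.3 CPM in Co-Mac (48.2 to 50.6), 26.4 CPM in VD-Mac (25.5 to 27.3) and 3.00 CPM in hSTSG (2.33 to 3.81). It was the only ISG above 20 CPM in a culture that was under 5 CPM in the graft. The synthetases make the second messenger that activates RNase L, and behaved differently. *Oas1a* stood at 3.16, 2.34 and 21.2 CPM and the related *Oasl2* at 3.13, 2.18 and 45.0 CPM in Co-Mac, VD-Mac and hSTSG. Both were low in culture and highest in the graft.

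Of the transcription factors, only *Irf7* was near absent from the cultures. *Irf7*, which amplifies type I interferon production, stood at 1.27 CPM in Co-Mac, 1.66 CPM in VD-Mac and 57.1 CPM in hSTSG. *Irf9* stood at 23.5, 24.9 and 61.6 CPM, and *Stat2* at 23.9, 19.8 and 35.1 CPM. These 2 genes differed by less than 2-fold between cultures, and *Stat2* by less than 2-fold between all libraries.

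The nucleic acid sensors split in the same way. *Ddx58* (RIG-I), which detects viral RNA ends, stood at 8.199, 8.76 and 25.2 CPM in Co-Mac, VD-Mac and hSTSG. *Ifih1* (MDA5), a sensor of long double-stranded RNA, stood at 10.0, 12.1 and 22.1 CPM. *Zbp1*, which senses Z-form nucleic acid and can start cell death, stood at 22.0, 22.9 and 53.9 CPM. These 3 were alike in both cultures and highest in the graft. *Ifi204*, a DNA-binding member of the p200 family, differed more, with 5.01 CPM in Co-Mac, 2.93 CPM in VD-Mac and 163 CPM in hSTSG, 32.6 times Co-Mac (30.0 to 35.4). Its paralogs share sequence, so reads that fit several of them may be assigned unevenly.

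The remaining effectors held the most abundant gene of the set in Co-Mac and hSTSG, while *Gbp2* led in VD-Mac. *Bst2* (tetherin) holds budding virions at the cell surface, and stood at 195 CPM in Co-Mac (192 to 197), 191 CPM in VD-Mac (189 to 194) and 276 CPM in hSTSG (269 to 282). Summed over whole libraries it thus stayed within 2-fold where other ISGs differed several-fold. Libraries differ in cell types, and between cell types its level was not even. *Ifi35* stood at 57.0, 87.4 and 26.3 CPM, and *Slfn5*, a Schlafen family gene, at 15.5, 35.1 and 127.6 CPM. Their VD-Mac to Co-Mac ratios were 1.53 (1.49 to 1.58) and 2.26 (2.15 to 2.39). In the graft *Slfn5* was highest and *Ifi35* lowest of the 3 libraries. *Trim30a* stood at 31.8, 31.4 and 79.1 CPM, and *Parp14*, an ADP-ribosyltransferase, at 29.9, 36.5 and 65.4 CPM. *Rtp4* stood at 0.9504, 0.919 and 36.4 CPM, and *Xaf1*, an antagonist of the apoptosis inhibitor XIAP, at 7.42, 4.57 and 20.1 CPM. All 4 were highest in hSTSG. The other 11 ISGs (*Ifit2*, *Ifit3*, *Ifit3b*, *Isg20*, *Cmpk2*, *Oas2*, *Oas3*, *Oasl1*, *Dhx58*, *Ifi44* and *Ifi206*) stayed under 20 CPM in every library. They ranged from 0.0258 to 18.7 CPM, and their UMIs from 4 to 398 in Co-Mac, 3 to 310 in VD-Mac and 36 to 423 in hSTSG. None of the 38 was at 0 in any library.

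Promoters of the set were read for the 2 elements, since several genes moved together in VD-Mac and others in the graft. Of the 38 ISGs, 30 had a promoter in the RefSeq table (GRCm38.p6, 250 bases before to 50 bases after the annotated start), and 8 did not (*Mx1*, *Oas2*, *Usp18*, *Rtp4*, *Dhx58*, *Zbp1*, *Ifi204* and *Parp14*). The ISRE core, searched as GAAANNGAAA on both strands, lay in the promoters of 19 of the 30 genes, where 3.99% of all 27025 genes and 3.44% of all 32851 promoters held it. The GAS core TTCNNNGAA lay in 7 of the 30, where 9.55% of all genes and 8.30% of all promoters held it. Both were found in 4 genes and neither in 8. Shown are the 3 guanylate-binding genes that were highest in VD-Mac, then *Isg15*, *Rsad2* and *Ifit1*, which were highest in the graft. The last is *Bst2*, which stayed within 2-fold over whole libraries. All run 5′ to 3′ on the strand of the gene, cover the upstream promoter and the first transcribed bases, and have ISRE matches in capitals. They lie at chr3:142620413-142620712 (*Gbp2*, plus strand), chr3:142559794-142560093 (*Gbp3*, plus), chr3:142496684-142496983 (*Gbp5*, plus), chr4:156200769-156201068 (*Isg15*, minus), chr12:26456403-26456702 (*Rsad2*, minus), chr19:34640639-34640938 (*Ifit1*, plus) and chr8:71537423-71537722 (*Bst2*, minus).
Gbp2: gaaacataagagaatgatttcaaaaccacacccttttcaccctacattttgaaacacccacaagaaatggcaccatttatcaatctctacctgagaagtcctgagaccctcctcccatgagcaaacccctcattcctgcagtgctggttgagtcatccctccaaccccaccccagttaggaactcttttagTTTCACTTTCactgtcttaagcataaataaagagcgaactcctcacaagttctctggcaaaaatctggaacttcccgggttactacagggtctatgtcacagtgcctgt
Gbp3: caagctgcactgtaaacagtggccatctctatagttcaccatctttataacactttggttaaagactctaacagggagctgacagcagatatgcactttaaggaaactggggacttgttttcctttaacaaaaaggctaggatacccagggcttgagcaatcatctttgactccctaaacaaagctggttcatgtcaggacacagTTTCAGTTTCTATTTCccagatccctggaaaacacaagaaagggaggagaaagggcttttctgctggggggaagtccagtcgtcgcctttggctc
Gbp5: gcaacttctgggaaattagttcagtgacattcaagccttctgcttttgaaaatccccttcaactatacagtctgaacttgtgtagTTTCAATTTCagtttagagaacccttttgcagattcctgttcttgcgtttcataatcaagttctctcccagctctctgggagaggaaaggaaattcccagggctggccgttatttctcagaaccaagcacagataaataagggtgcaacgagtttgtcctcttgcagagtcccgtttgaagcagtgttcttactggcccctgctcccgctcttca
Isg15: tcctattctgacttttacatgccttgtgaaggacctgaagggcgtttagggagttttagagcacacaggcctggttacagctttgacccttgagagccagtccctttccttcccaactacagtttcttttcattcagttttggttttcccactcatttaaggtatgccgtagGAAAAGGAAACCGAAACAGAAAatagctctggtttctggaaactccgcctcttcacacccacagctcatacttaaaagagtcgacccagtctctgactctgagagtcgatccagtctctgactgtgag
Rsad2: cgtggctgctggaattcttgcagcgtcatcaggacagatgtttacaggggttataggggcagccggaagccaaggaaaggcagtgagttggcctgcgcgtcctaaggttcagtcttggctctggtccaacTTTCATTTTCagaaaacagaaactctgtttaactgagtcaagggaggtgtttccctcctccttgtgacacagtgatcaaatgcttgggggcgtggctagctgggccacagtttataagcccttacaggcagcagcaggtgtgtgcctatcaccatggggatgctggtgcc
Ifit1: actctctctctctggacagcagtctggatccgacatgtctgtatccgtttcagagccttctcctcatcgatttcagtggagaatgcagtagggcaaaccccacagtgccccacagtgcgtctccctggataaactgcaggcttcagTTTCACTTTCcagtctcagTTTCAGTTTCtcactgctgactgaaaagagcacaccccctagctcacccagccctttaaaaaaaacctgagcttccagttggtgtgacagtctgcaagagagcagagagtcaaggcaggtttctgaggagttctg
Bst2: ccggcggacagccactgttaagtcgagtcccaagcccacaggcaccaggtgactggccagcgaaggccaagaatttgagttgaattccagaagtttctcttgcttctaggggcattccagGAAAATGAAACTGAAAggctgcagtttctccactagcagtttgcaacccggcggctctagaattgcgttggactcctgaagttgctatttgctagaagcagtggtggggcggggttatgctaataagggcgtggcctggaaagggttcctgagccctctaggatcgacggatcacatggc

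ISRE cores were thus present in promoters of both kinds of gene, those highest in VD-Mac and those highest in the graft. All promoters shown held the core, and of the 2 promoters of *Gbp3* one with it was taken. The core was not found for *Ifit2*, *Isg20*, *Oasl1*, *Oasl2*, *Irf7*, *Irf9*, *Ifi44*, *Ifi35*, *Ifi47*, *Cmpk2* and *Xaf1*. Of these, all but *Ifi35* were highest in the graft, so many graft-high genes lacked it in the stretch searched. Matches came to 3 in *Isg15* and 2 each in *Gbp3*, *Ifit1* and *Bst2*. *Gbp5* also held 2 GAS cores and *Bst2* 1. No binding was measured in this study. By GENCODE M21 positions of the Ensembl identifiers in the files, 18 of the 38 genes lay in 7 groups with neighbors no more than 500 kb apart. *Gbp5*, *Gbp3* and *Gbp2* filled 144 kb at chr3:142493978-142638008, and *Ifit2*, *Ifit3*, *Ifit3b* and *Ifit1* filled 99.3 kb at chr19:34550694-34650009. Neighbors were not always alike: *Rsad2* and *Cmpk2* lie within 37.1 kb at chr12:26442746-26479837, and *Rsad2* was 3.21 times higher in VD-Mac than in Co-Mac (2.78 to 3.71) while *Cmpk2* was 1.15 times (0.840 to 1.58).

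To see which cells carried the ISGs, the 2 cultures were clustered together, with all genes of the lists left out of the clustering. Clusters were named for the marker set with the highest score, and 5 classes with at least 50 cells in each culture were compared. Within classes a call again took a factor of 2, here with 20 CPM in the greater of the levels. A gene under 20 CPM in 1 culture could thus be called through the other alone. The macrophage-like and mature dendritic cell-like (DC-like) classes were filled by different clusters in the 2 cultures. Cluster 7 held 99.8% of the macrophage-like cells of Co-Mac and cluster 6 99.6% of those of VD-Mac, and clusters 1 and 0 held 99.6% and 99.4% of the DC-like cells. These ratios therefore compare cells that also differ in many other genes.

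Mature DC-like cells held about as much ISG RNA as all other culture cells together. They gave 51.1% of the ISG UMIs of Co-Mac from 36.3% of its cells, and 50.5% of those of VD-Mac from 34.1% of its cells. Their summed level was 1071 CPM in Co-Mac (1061 to 1081) and 1232 CPM in VD-Mac (1221 to 1242), a ratio of 1.15 (1.14 to 1.16), with median depths of 14462 and 13323 UMIs. Without *Gbp2*, *Gbp3* and *Gbp5* the direction turned, with 823 CPM in Co-Mac and 706 CPM in VD-Mac, a ratio of 0.858 (0.845 to 0.871). Of 13 ISGs at the level for a call, 2 were higher, beside 1.98% of all genes, and 1 was lower, beside 2.64%. Higher were *Gbp2*, from 131 to 318 CPM (ratio 2.42, 2.35 to 2.501), and *Gbp3*, from 27.4 to 59.8 CPM (2.18, 2.03 to 2.34). Lower was *Mx1*, from 122 to 52.8 CPM (0.431, 0.410 to 0.453). *Bst2*, at 332 and 292 CPM, was the most abundant ISG of the class in Co-Mac, and *Gbp2* that in VD-Mac. *Gbp5* followed these 2 in VD-Mac at 148 CPM, with 88.7 CPM in Co-Mac. *Gbp5* was within 2-fold, so the calls of the class were *Gbp2* and *Gbp3* higher and *Mx1* lower. *Isg15* stood at 4.79 CPM in Co-Mac and 1.17 CPM in VD-Mac.

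Macrophage-like cells stood well under mature DC-like cells in both cultures. Their sum was 428 CPM in Co-Mac (420.1 to 437) and 625 CPM in VD-Mac (614 to 636), a ratio of 1.46 (1.42 to 1.498), at median depths of 20335 and 15020 UMIs. Without the 3 guanylate-binding genes it was 387 and 481 CPM, a ratio of 1.24 (1.21 to 1.28). After thinning, 54.0% of these cells held an ISG UMI in Co-Mac and 68.2% in VD-Mac (99.6% and 99.5% unthinned). Of 9 ISGs at the level for a call, 5 were higher, beside 5% of all genes, and 0 lower, beside 6.53%. They were *Gbp5*, from 3.56 to 33.9 CPM (ratio 9.54, 7.58 to 12.1), *Slfn5*, from 11.2 to 44.3 CPM (3.96, 3.45 to 4.57), *Gbp2*, from 26.6 to 82.1 CPM (3.08, 2.81 to 3.39), *Gbp3*, from 11.2 to 27.7 CPM (2.48, 2.13 to 2.89), and *Ifi35*, from 35.8 to 78.0 CPM (2.18, 2.00 to 2.37). *Bst2* stood at 122 and 117 CPM and *Trim30a* at 39.4 and 43.7 CPM. In this class the direction did not depend on the guanylate-binding genes.

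**Figure D2:**
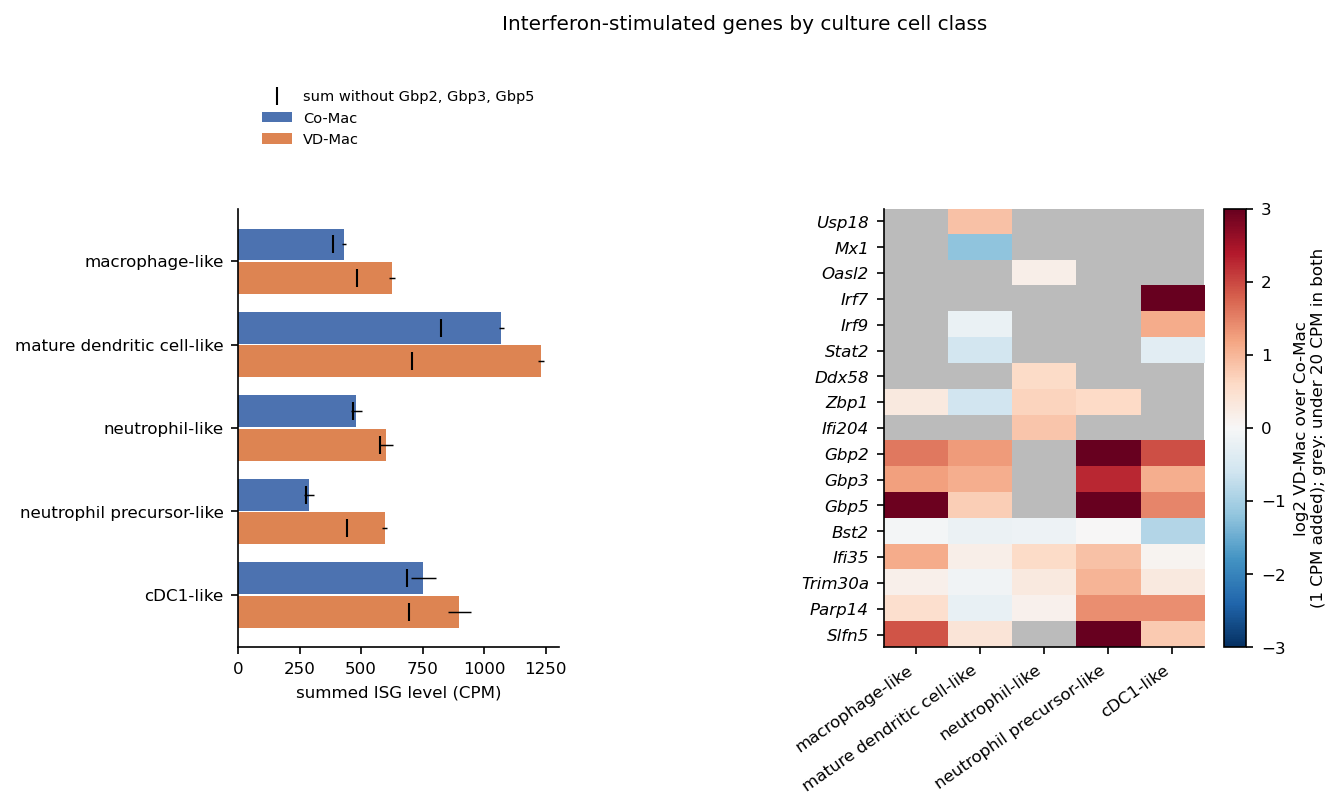
Left, summed ISG level in 5 culture cell classes with exact 95% Poisson intervals, where ticks mark the sum without 3 guanylate-binding genes. Right, log2 ratio of VD-Mac over Co-Mac for each ISG whose greater level in a class reached 20 CPM, from 1 library per group.

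The 3 remaining classes each came from 1 cluster shared by the cultures. Neutrophil-like cells, with 889 cells in Co-Mac and 1022 in VD-Mac and median depths of 2786 and 2672.5 UMIs, stood at 481 CPM (460.4 to 502) and 603 CPM (577 to 628), a ratio of 1.253 (1.18 to 1.33). When each culture was clustered alone, the log2 ratio of this class was -0.11 in place of 0.33, so its direction depended on how cells were grouped. Of 8 ISGs at the level for a call, 0 were higher, beside 1.32% of all genes, and 0 lower, beside 1.75%. *Bst2* (109 and 97.3 CPM), *Ifi35* (54.9 and 82.1 CPM) and, in VD-Mac, *Zbp1* (32.0 and 51.0 CPM) were the most abundant. In Co-Mac *Parp14* took the place of *Zbp1*, at 39.4 CPM, with 43.5 CPM in VD-Mac. Neutrophil-like cells were the only compared class in which none of the 3 guanylate-binding genes reached 20 CPM.

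Neutrophil precursor-like cells numbered 141 in Co-Mac and 1089 in VD-Mac, with median depths of 18720 and 22378 UMIs. Their sum was 288 CPM (269 to 307) and 595 CPM (586 to 605), a ratio of 2.07 (1.93 to 2.22). Of 9 ISGs at the level for a call, 6 were higher, beside 12.8% of all genes, and 0 lower, beside 6.78%. All 6 were under 20 CPM in Co-Mac and met the level only through VD-Mac. *Gbp2* went from 4.23 to 84.7 CPM (ratio 20.0, 11.7 to 37.7), *Gbp5* from 2.28 to 41.6 CPM (18.3, 8.85 to 45.6), *Gbp3* from 4.88 to 27.2 CPM (5.58, 3.36 to 10.02), *Parp14* from 14.0 to 38.7 CPM (2.77, 2.04 to 3.85) and *Trim30a* from 19.2 to 40.03 CPM (2.09, 1.60 to 2.76). *Slfn5* had 0 UMIs in Co-Mac and 21.1 CPM in VD-Mac. *Bst2* (111 and 113 CPM) and *Ifi35* (39.7 and 73.6 CPM) were also abundant. Under 6 other settings of filters or clustering this class gave no value.

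Cells like conventional type 1 dendritic cells (cDC1-like), 79 in Co-Mac and 118 in VD-Mac with median depths of 13612 and 11884 UMIs, stood at 752 CPM (702 to 804) and 899 CPM (852 to 948), a ratio of 1.20 (1.10 to 1.304). Without the 3 guanylate-binding genes the sum was 685 and 693 CPM, a ratio of 1.01 (0.921 to 1.11). Of 11 ISGs at the level for a call, 6 were higher, beside 8.2% of all genes, and 0 lower, beside 6.13%. *Irf7* went from 1.76 to 22.9 CPM (ratio 12.98, 3.34 to 111), resting on 2 and 35 UMIs. *Gbp2* went from 26.4 to 104 CPM (3.93, 2.65 to 6.02), *Gbp5* from 20.2 to 58.1 CPM (2.87, 1.80 to 4.76), *Parp14* from 19.4 to 52.2 CPM (2.70, 1.67 to 4.54), *Irf9* from 23.8 to 52.2 CPM (2.20, 1.41 to 3.54) and *Gbp3* from 20.2 to 44.4 CPM (2.19, 1.35 to 3.69). *Bst2* had less in VD-Mac but was within 2-fold, at 279 and 152 CPM (0.543, 0.456 to 0.645). *Ifi35* was nearly equal, at 136 and 144 CPM, and *Trim30a* stood at 64.3 and 79.0 CPM. Across the classes, then, *Gbp2* and *Gbp3* were called higher in VD-Mac in every class but the neutrophil-like one. In precursor-like cells both, and in macrophage-like cells *Gbp3*, met the level of 20 CPM only through VD-Mac. Clusters with no name held 12.5% of the cells and 7.16% of the ISG UMIs of Co-Mac (632 CPM), and 27.0% and 19.3% in VD-Mac (982 CPM). Of these, cluster 8, with *Gbp2* among its leading genes, had 653 VD-Mac cells at 1114 CPM (1097.8 to 1130.4) and 17943 ISG UMIs, more than the macrophage-like class (11757). It held 5 cells of Co-Mac, so it allowed no comparison. The cluster named for proliferation (1500 cells in Co-Mac, 1 in VD-Mac) also allowed none and stood at 441 CPM in Co-Mac. Proliferation markers summed to 589.6 CPM in Co-Mac and 499 CPM in VD-Mac, and the precursor-like cluster scored 2.20 for them, against 1.89 in the cluster so named. Proliferation was thus not confined to that cluster, and its bearing on the ratios was not tested.

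The graft library was clustered by itself in the same way, and with all cells of a class summed, neutrophil-like cells had the highest ISG level of the named classes. The 476 neutrophil-like cells stood at 3417 CPM (3311 to 3526), 2.06 times all other kept graft cells (1.99 to 2.13). Cluster 8 (40 cells), which had no name because markers of neutrophil precursors outnumbered those of neutrophils among its leading genes, had a higher neutrophil marker score (4.89 against 3.81) and stood at 763 CPM (674 to 861). Fibroblast-like cells (139 cells) followed with 2631 CPM (2578 to 2684), and endothelial cell-like cells (25 cells) with 2507 CPM (2379.8 to 2640.2). Monocyte-like cells (443 cells) stood at 1581 CPM (1541 to 1623), T cell-like cells (178 cells) at 1528 CPM (1458 to 1600.2), and macrophage-like cells (512 cells) at 1493 CPM (1468 to 1518). The intervals of fibroblast-like and endothelial cell-like cells overlapped, and so did those of T cell-like cells with both neighbors in this order. Gamma-delta T cell-like cells (123 cells) stood at 1166 CPM (1088 to 1248), basophil-like or mast cell-like cells (14 cells) at 987 CPM (789.7 to 1219), and mature DC-like cells (33 cells) at 832 CPM (749.6 to 920.5). Here the interval of basophil-like or mast cell-like cells overlapped both others. DC-like cells thus led the compared classes of the cultures and were among the lowest named classes of the graft.

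**Figure D3:**
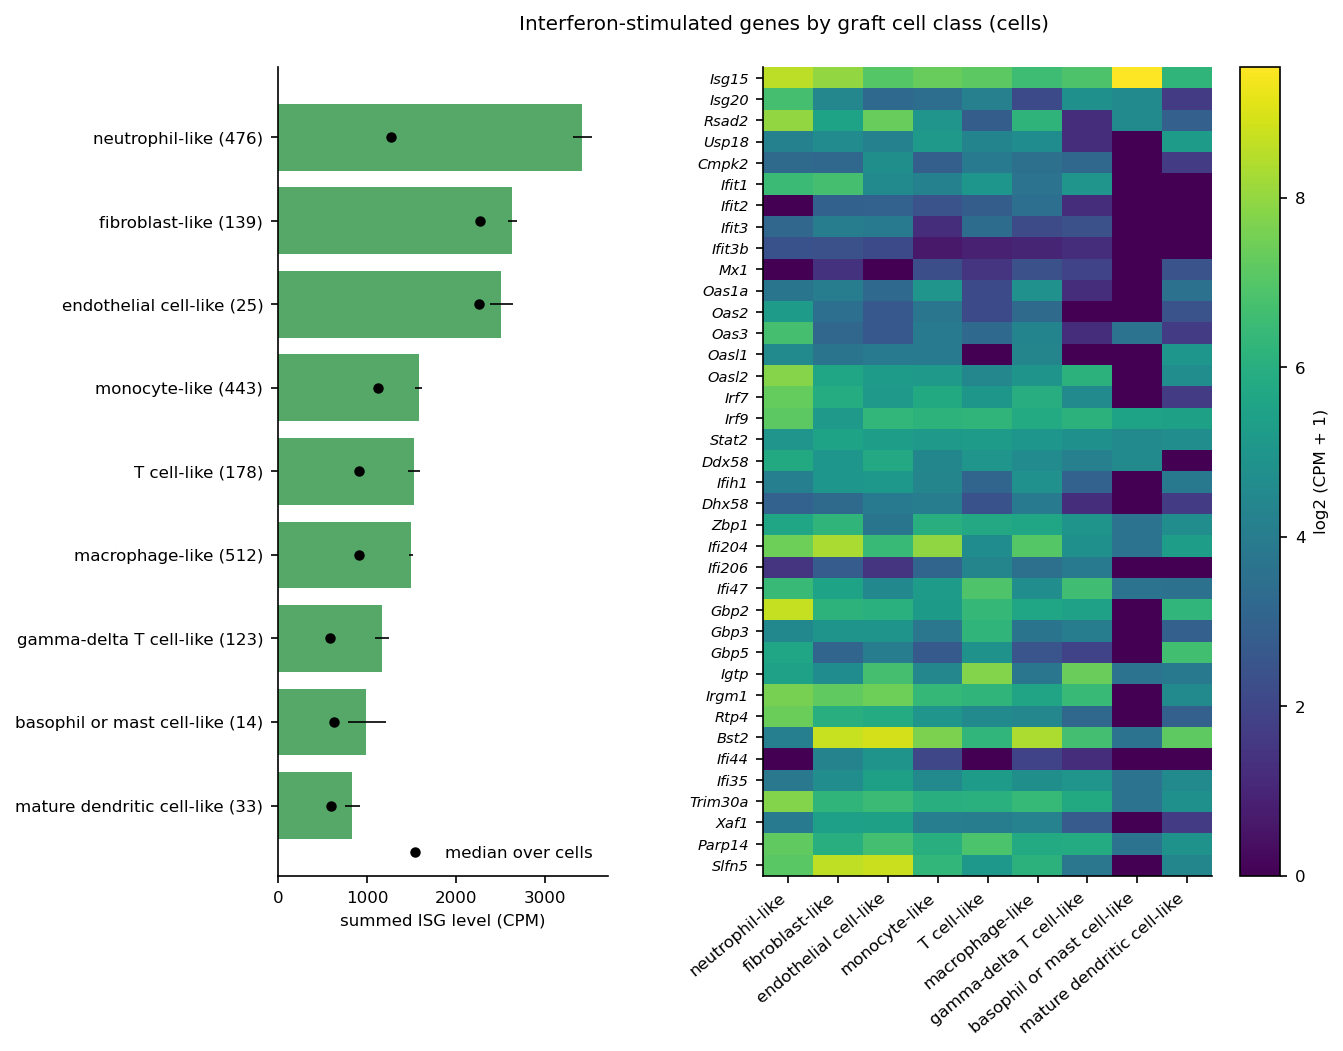
Left, summed ISG level in the named graft cell classes (cell numbers in parentheses) with exact 95% Poisson intervals, where points mark the median over cells of each cell's own share. Right, level of each ISG in each class as log2 of CPM with 1 added, from 1 pooled library.

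A high level was not the same as a large share of the RNA. Neutrophil-like cells made up 22.2% of the kept graft cells, with a median depth of 2261.5 UMIs, and gave 9.88% of the ISG UMIs, a median of 3 UMIs per cell. Fibroblast-like cells, at a median depth of 25493 UMIs, were 6.48% of cells and gave 24.1% of ISG UMIs, a median of 47 per cell. Macrophage-like cells were 23.9% of cells and gave 33.9%, a median of 15 per cell. Of all gene UMIs of the graft, macrophage-like cells held 39.8%, fibroblast-like cells 16.0% and neutrophil-like cells 5.06%. The ISG share of macrophage-like cells was thus under their share of RNA, and those of the other 2 classes were over it. Most ISG molecules of the graft therefore came from macrophage-like and fibroblast-like cells, while the level summed over all cells of a class was highest in neutrophil-like cells.

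Within the neutrophil-like class the signal was uneven. The median cell had an ISG share of 1275 CPM, the 10% of cells with the lowest shares had 0 and the 10% with the highest at least 8743 CPM. The 10% of cells with the most ISG UMIs held 54.5% of those of the class. In the other named classes with at least 100 cells they held 35.6% to 47.3%. With a median of 3 ISG UMIs per cell, counting error and depth add to this unevenness, and their part was not tested. In fibroblast-like cells the median share was 2274 CPM, and the 10% of cells with the most ISG UMIs held 35.6% of them. Fibroblast-like cells thus had the higher median and neutrophil-like cells the higher sum. Among the named classes with at least 100 cells, 17 of the 38 ISGs were highest in neutrophil-like cells, 10 in fibroblast-like, 6 in T cell-like, 3 in monocyte-like and 2 in macrophage-like cells. With at least 20 CPM in 1 of these classes, 16 of 30 ISGs were highest in neutrophil-like cells, beside 12.5% of all genes, and 8 in fibroblast-like cells, beside 20.0% of all genes.

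Among classes with at least 100 cells, *Isg15* and 3 of the 6 GTPases (*Gbp2*, *Gbp5* and *Irgm1*) were highest in neutrophil-like cells. *Gbp2* stood there at 416 CPM (379.7 to 455), against 81.7 CPM in T cell-like and 47.4 CPM in macrophage-like cells. *Isg15* stood at 385 CPM (349.7 to 422), 255 CPM in fibroblast-like and 94.0 CPM in macrophage-like cells. *Rsad2* stood at 253 CPM (225 to 284), against 73.2 CPM in macrophage-like and 5.96 CPM in T cell-like cells. *Oasl2* (224 CPM), *Trim30a* (216 CPM), *Irgm1* (189 CPM), *Rtp4* (168 CPM), *Irf7* (154 CPM), *Oas3* (106 CPM) and *Isg20* (105 CPM) were also highest in this class. Other ISGs were low in it: *Ifit2*, *Mx1* and *Ifi44* had 0 UMIs, which allows up to 3.22 CPM, a limit above the level of *Mx1* in the whole library. *Bst2* stood at 16.6 CPM (9.98 to 25.9), where macrophage-like cells had 328 CPM. The class thus did not hold all ISGs in common.

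RNA released from broken cells can enter droplets, so shares were compared with classes that lacked a gene. *Bst2* was found in 3.15% of neutrophil-like cells and 86.5% of macrophage-like cells, whose median depths were 2261.5 and 14335.5 UMIs, and after thinning in 2.52% and 42.6%. *Rsad2* was found in 13.4% of neutrophil-like cells and, at a median depth of 5520 UMIs, in 0.813% of gamma-delta T cell-like cells (14.8% and 0.820% thinned). *Isg15* was found in 27.3% and 25.2% (27.7% and 12.3% thinned), so that class did not lack it. The share of any ISG UMI after thinning was 81.4% in neutrophil-like (76.7 to 85.6%), 87.0% in fibroblast-like, 81.4% in macrophage-like and 80.3% in T cell-like cells, and unthinned 82.1%, 99.3%, 98.4% and 93.8%. It was 67.2% in gamma-delta T cell-like (58.1 to 75.4%), 60.6% in mature DC-like and 92.0% in endothelial cell-like cells, with 91.1%, 93.9% and 100% unthinned. Neutrophil-like cells thus had the highest summed level but not the highest share of cells with an ISG UMI. Barcodes with under 300 genes, which were left out, held 370.0 CPM in the graft library (326 to 418), 51.8 CPM in Co-Mac and 59.4 CPM in VD-Mac.

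The leading ISGs of fibroblast-like cells were not those of neutrophil-like cells, though several were abundant in both. *Bst2* led with 430.0 CPM (409 to 452), *Slfn5* followed with 399 CPM (378 to 420), and *Ifi204* with 322 CPM (304 to 341). *Ifit1* stood at 106 CPM, beside 89.9 CPM in neutrophil-like and 11.3 CPM in macrophage-like cells. The 25 endothelial cell-like cells resembled them in *Bst2* (484 CPM) and *Slfn5* (438 CPM), followed by *Irgm1* at 174 CPM. Stromal cells of the graft were thus the place of highest *Slfn5*, and 50.1% of its graft UMIs lay in fibroblast-like cells.

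In T cell-like cells the other 3 GTPases (*Igtp*, *Ifi47* and *Gbp3*) were highest among classes with at least 100 cells. *Igtp* led with 219 CPM (194 to 248), where macrophage-like cells had 12.4 CPM, followed by *Isg15* with 141 CPM and *Ifi47* with 119 CPM. In gamma-delta T cell-like cells *Igtp* also led, with 164 CPM, before *Isg15* with 116 CPM and *Bst2* with 102 CPM. Of the 50 UMIs of interferon gamma (*Ifng*) in the graft, 47 lay in the T cell-like cluster (39.98 CPM, 29.4 to 53.2) and 0 in the gamma-delta one. This cluster also scored for markers of natural killer cells (3.16, against 4.04 for T cells), and *Gzma* and *Nkg7* led its genes. The ligand and the highest *Igtp* level were thus found in the same cluster.

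Macrophage-like cells of the graft came from 2 clusters with different ISG levels. Cluster 2 (355 cells, led by *Gpnmb*, *Mmp12*, *Spp1* and *Trem2*, median depth 15738 UMIs) stood at 1349 CPM (1322 to 1377). Cluster 4 (157 cells, led by *Cd209f*, *Cd163* and *Lyve1*, median depth 11644 UMIs) stood at 1927 CPM (1869.6 to 1985). *Bst2* and *Ifi204* led both, with 301 and 114 CPM in cluster 2 and 410.1 and 182 CPM in cluster 4. *Trim30a* was higher in cluster 4, at 134 against 65.1 CPM, as was *Usp18*, at 47.8 against 15.7 CPM. *Rsad2* and *Isg15* went the other way, with 77.9 and 98.9 CPM in cluster 2 and 58.9 and 79.0 CPM in cluster 4. Over all their cells, the cluster led by *Trem2* and *Gpnmb* thus had the lower sum of the 2, and not for every gene. Monocyte-like cells, whose markers scored weakly (0.470 on a log2 scale), were led by *Ifi204* (249 CPM), *Bst2* (201 CPM) and *Isg15* (161 CPM). Mature DC-like cells were led by *Bst2* (142 CPM), *Gbp5* (100.1 CPM) and *Gbp2* (77.8 CPM), and basophil-like or mast cell-like cells by *Isg15* (746 CPM, 14 cells) and *Irf9* (45.9 CPM), with *Rsad2* among 4 genes at 23.0 CPM.

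Antibody hashtag counts in the graft library, which were not otherwise used, differed along with the ISG level in some clusters. In cluster 2, cells in which hashtag 5 led stood at 2977 CPM (2886 to 3070.1) and cells in which hashtag 4 led at 897 CPM (867 to 929). In cluster 4 they stood at 1709 CPM and 1927 CPM, so the order of the 2 clusters turned with the hashtag. Only 640 of the 2144 kept cells (29.9%) had a leading hashtag, defined as one with at least 70% of at least 20 hashtag UMIs. Over all cells so led the ratio of hashtag 5 (285 cells) over hashtag 4 (309 cells) was 2.12 (2.06 to 2.20). With a leading share of 50%, cells led by hashtag 4 stood at 1773 CPM in the neutrophil-like cluster (61 cells, 1572 to 1991), 1987 CPM in the fibroblast-like cluster (22 cells, 1888 to 2089) and 1891 CPM in cluster 4 (55 cells). Among these, neutrophil-like cells were not the highest, and those led by hashtag 5 (20 cells) stood at 3619.9 CPM. The order of the classes thus also depended on the hashtag. What the hashtags stand for is not given, and the division was chosen after seeing the data.

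The graft and culture classes of the same name differed in level. Macrophage-like cells stood at 1493 CPM in the graft, against 428 CPM in Co-Mac and 625 CPM in VD-Mac. Neutrophil-like cells stood at 3417 CPM in the graft, against 481 and 603 CPM. Mature DC-like cells were the only class with a lower level in the graft, 832 CPM against 1071 and 1232 CPM. *Bst2*, within 2-fold over whole libraries, also differed by class. Macrophage-like cells had 328 CPM of it in the graft, against 122 CPM in Co-Mac and 117 CPM in VD-Mac. Mature DC-like cells had 142 CPM, against 332 and 292 CPM, and neutrophil-like cells also had less in the graft. Tissue, preparation and day differ between these libraries and cannot be told apart.

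The other genes of the pathway showed almost no ligand RNA. Of 21 interferon genes, 16 had 0 UMIs in every library, and their sum was 5 UMIs in Co-Mac, 4 in VD-Mac and 57 in hSTSG. Receptors and Janus kinases were present in all. *Jak1*, with the highest level of these in any library, stood at 106 CPM in Co-Mac, 105 CPM in VD-Mac and 291 CPM in hSTSG. *Ifngr1*, the ligand-binding chain of the interferon gamma receptor, was the only 1 called higher of 9 at the level for a call, where 2.16% of all genes were, and 0 were lower, at 51.6, 106 and 176 CPM (VD-Mac to Co-Mac ratio 2.05, 1.99 to 2.11).

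Among 7 other interferon regulatory factors (6 at that level), *Irf8*, a factor of myeloid and dendritic development, had the highest level in any library and was the only 1 called, at 133, 307 and 147 CPM (ratio 2.32, 2.28 to 2.36). Among 14 genes of nucleic acid sensing (10 at that level) the same held for *Unc93b1*, the chaperone of endosomal Toll-like receptors, at 134, 348 and 204 CPM (2.59, 2.55 to 2.64). Among 8 negative regulators (7 at that level) it held for *Samhd1*, a phosphohydrolase of deoxynucleotides, at 298, 697 and 169 CPM (2.34, 2.31 to 2.37). Each of these 3 lists thus had 1 gene higher in VD-Mac and 0 lower, beside 2.16% and 4.63% of all genes.

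Other ISGs outside the set were called in both directions. Of 48 further type I ISGs, 31 were at the level for a call, of which 1 was higher and 4 were lower in VD-Mac, beside 2.16% and 4.63% of all genes. *Pml*, which forms nuclear bodies, stood at 6.19 CPM in Co-Mac, 22.6 CPM in VD-Mac and 10.7 CPM in hSTSG (VD-Mac to Co-Mac ratio 3.65, 3.38 to 3.96). Lower were *Samd9l* (21.8 and 5.62 CPM in the cultures, 0.258), *Ifi203* (15.9 and 6.26 CPM, 0.393), *Ifi207* (12.7 and 5.50 CPM, 0.431) and *Mndal* (32.2 and 15.1 CPM, 0.469), of which the last 3 belong to the p200 family of *Ifi204*. In hSTSG these 4 stood at 47.4, 117, 225 and 73.7 CPM, above both cultures. *Ly6e*, the most abundant, stood at 305, 290.4 and 586 CPM. Of 20 genes typical of interferon gamma, 11 were at that level, and *Gbp7* was higher in VD-Mac (25.9 and 56.3 CPM, 2.17) and *Ciita*, the activator of MHC class II genes, lower (46.2 and 18.0 CPM, 0.389). The immunoproteasome subunit *Psmb8* was the most abundant of these, at 588, 738 and 136 CPM. *Gbp7* thus moved like the 3 guanylate-binding genes of the set, and *Ciita* did not.

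Median log2 ratios of VD-Mac over Co-Mac, with 1 CPM added, were 0.03 for receptors and kinases, 0.15 for the regulatory factors, -0.22 for sensing, 0.17 for negative regulators, -0.12 for further type I ISGs and 0.11 for the interferon gamma list, beside -0.01 for all genes. For hSTSG over Co-Mac they were 0.94, -0.36, 0.35, 0.31, 0.87 and 0.36, beside 0.08. The lists that were highest over the background in the graft were thus receptors with kinases and further type I ISGs.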

How the data were processed

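The deposited matrices hold raw UMI counts, which the authors made with Cell Ranger (3.1.0 in the file headers). Cells passed the filters given in the report, and 92.3% of Co-Mac, 90.1% of VD-Mac and 81.1% of hSTSG barcodes were kept. Levels are summed UMIs over all gene UMIs, with exact Poisson, binomial and Clopper-Pearson intervals. Clusters were made in Seurat 5.3.0 (R 4.3.3; 2000 variable genes, 15 principal components, resolution 0.5), jointly for the cultures and alone for the graft. Clusters were named by their best-scoring markers, where the mean log2 ratio to other cells reached 0.4 and 3 markers were detected. Named clusters also had no more markers of another class than of their own among their 10 leading genes. Culture clusters 3 and 9 met these limits for proliferation markers (scores 0.707 and 0.609) and were left with no name. Clusters with strong markers of unrelated types were called mixed. Other tools were edgeR 4.0.16 (TMM factors), scanpy 1.11.5 (Scrublet), numpy 2.4.6, scipy 1.17.1, pandas 2.3.3 and matplotlib 3.10.9. Named are members with 20 CPM in any library, the 3 highest and all called members of a class, and up to 4 called genes per direction and list with the most abundant one. Genes that share sequence, such as *Ifit3* and *Ifit3b*, may exchange reads. Labels and methods name different genome builds, so coordinates follow the mouse Ensembl identifiers. Calculations were tested on simulated data. The members and lists were chosen with earlier results of these data known.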

Additional observations from a re-analysis of the deposited data

Results flagged for a closer look

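For 3 ISGs with 20 CPM or more in the greater library of both classes, the ratio of VD-Mac over Co-Mac went opposite ways in different culture classes, with both intervals away from 1. *Irf9* was 2.20 in cDC1-like cells and 0.869 in mature DC-like cells. *Parp14* was 2.77 in neutrophil precursor-like cells and 0.858 in mature DC-like cells. *Zbp1* was 1.60 in neutrophil-like cells and 0.664 in mature DC-like cells. In each, the lower ratio was that of mature DC-like cells, and the difference was not tested.

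Antibody hashtags were counted in the graft library and used in no comparison above other than the division by leading hashtag. Kept cells held 87694 UMIs of hashtag 2, 66851 of hashtag 3, 273883 of hashtag 4 and 305972 of hashtag 5. In macrophage-like cluster 2, cells led by hashtag 5 (77 cells, median depth 14716 UMIs) had 3.32 times the summed ISG level of cells led by hashtag 4 (154 cells, median depth 20210.5 UMIs; interval 3.17 to 3.48). A leading hashtag had at least 70% of at least 20 hashtag UMIs, a rule chosen after seeing the data. Of 30 ISGs at 20 CPM or more, 26 were at least 2-fold higher with hashtag 5, as were 3.74% of all genes. Lower by as much were 0 of the 30, beside 3.32% of all genes. In macrophage-like cluster 4 the ratio was 0.887 (0.827 to 0.952), and 0.974 (0.912 to 1.0397, an interval that includes 1) where a leading share of 50% was enough. The rule left 640 of 2144 kept cells (29.9%), and the median leading share was 50%. Over all cells led by hashtag 5 or 4 (285 and 309 cells) the ratio was 2.12. In monocyte-like cluster 1 it was 1.95, with 11 of 22 ISGs higher beside 9.59% of all genes. There macrophage markers summed to 12394 CPM with hashtag 5 and 6549.8 CPM with hashtag 4, and monocyte markers to 421 and 1003 CPM. The part of these in the ratio was not tested. At a leading share of 50%, the ratio was 2.04 in neutrophil-like cluster 0 (1.66 to 2.51) and 2.61 in cluster 6. In cluster 0, 17 of 26 ISGs were higher and 5 lower, beside 38.7% and 17.2% of all genes. In cluster 6, 14 of 22 ISGs were higher and 0 lower, beside 10.7% and 15.2%. Hashtags 2 to 5 are listed with the type human. The labels do not say what each hashtag marks, and the difference was not tested.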

How the results depend on the processing

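No paired analysis was possible because each condition is 1 library and the labels give no pairs, and leaving out replicates in turn was not possible with 1 library per group. Each result was computed again with 1 choice changed at a time. Of 191 values, 97 stayed within their interval (for counts, within 1.5 times), 91 moved and 3 changed direction. All values of VD-Mac over Co-Mac, of hSTSG over Co-Mac and of hSTSG over VD-Mac below are log2 ratios, which were 0.49, 1.43 and 0.94 in the report. Graft classes are in CPM. With at least 300 UMIs in place of 300 genes, hSTSG over Co-Mac was 1.41 and over VD-Mac 0.92, and the thinned share of hSTSG cells with an ISG UMI 78.0%. Under 5% mitochondrial UMIs, the 3 log2 ratios were 0.42, 1.47 and 1.053, 4 ISGs (5 in the report) and 4 list genes (6) were higher and 3 list genes (5) lower in VD-Mac, mature DC-like cells stood at 0.18, neutrophil-like at 0.033 and neutrophil precursor-like cells at 0.85, graft macrophage-like cells at 1576 CPM, and the shares were 63.4% in Co-Mac and 71.6% in VD-Mac. With the highest doublet scores removed, graft macrophage-like cells stood at 1544 and fibroblast-like cells at 2567 CPM. With the mean over cells of each share, the 3 ratios were 0.31, 1.56 and 1.247, mature DC-like cells 0.18, neutrophil-like 0.22 and precursor-like 0.87, and in the graft neutrophil-like cells 3299, macrophage-like 1764 and T cell-like 1703 CPM. Without ribosomal protein and mitochondrial genes in the totals, the 3 ratios were 0.59, 1.27 and 0.68, macrophage-like cells 0.70 and mature DC-like cells 0.25. The 3 ratios over whole libraries thereby moved by 0.09, -0.17 and -0.26. With TMM factors, the 3 ratios were 0.58, 0.98 and 0.40, with log2 factors of -0.09, 0.46 and 0.54 subtracted. With factors computed within each class, mature DC-like cells stood at 0.16 and neutrophil-like cells at 0.18. The median log2 ratio of all genes with 10 CPM was -0.10, 0.07 and 0.20. Centered on it, the 3 ratios were 0.59, 1.36 and 0.74. With classes centered on their own medians, macrophage-like cells stood at 0.59, mature DC-like at 0.14 and neutrophil-like cells at 0.17. With the mean class make-up of both cultures, without the class named for proliferation, VD-Mac over Co-Mac was 0.37. At resolution 0.3 macrophage-like cells stood at 0.45. At resolution 0.8 they stood at 0.59, mature DC-like at 0.24, neutrophil-like at 0.078, precursor-like at 1.18, and graft macrophage-like cells at 1701 CPM. With each culture clustered alone, neutrophil-like cells changed direction to -0.11. At 1.5-fold, 1 ISG was lower in VD-Mac, and 12 list genes were higher and 10 lower. With no minimum level, 3 ISGs were lower, and 12 list genes were higher and 13 lower. Thinned to 1000 UMIs, the shares were 45.1% in Co-Mac, 53.6% in VD-Mac and 64.3% in hSTSG, and with no thinning 92.4%, 89.4% and 91.0%. Without *Bst2*, the 3 ratios were 0.67, 1.703 and 1.03, macrophage-like cells 0.73, mature DC-like 0.35, neutrophil-like 0.44, precursor-like 1.45 and cDC1-like 0.66, and in the graft macrophage-like cells 1164, T cell-like 1451 and fibroblast-like 2201 CPM. The following 2 were chosen after seeing the data. Without *Gbp2*, *Gbp3* and *Gbp5*, the 3 ratios were 0.10, 1.63 and 1.53, macrophage-like cells 0.31, precursor-like 0.68 and cDC1-like 0.017, mature DC-like cells changed direction to -0.22, and graft neutrophil-like cells stood at 2930, macrophage-like at 1429, T cell-like at 1342 and fibroblast-like at 2523 CPM. Without *Bst2* as well, the 3 ratios were 0.17, 2.02 and 1.86, macrophage-like cells 0.46, neutrophil-like 0.42 and cDC1-like 0.42, mature DC-like cells stood at -0.25, and graft neutrophil-like cells at 2914, macrophage-like at 1101, T cell-like at 1266 and fibroblast-like at 2093 CPM. For the values that changed through filters, scaling or clustering, the cause was not tested. No value was found for neutrophil precursor-like cells with the 300 UMI filter, doublet scores, resolution 0.3, 30 principal components, list genes kept or cultures clustered alone, nor for culture macrophage-like and graft T cell-like cells under 5% mitochondrial UMIs. The hashtag ratio, 1.73 as log2, was 1.699 and 1.65 with leading shares of 50% and 80%. Depth limits neutrophil-like cells, which held a median of 3 ISG UMIs in the graft and 2 in each culture, and genes with few UMIs in small classes have wide intervals. With 1 library per group and 5 mice pooled, no difference between conditions can be told apart from one between dishes, animals or library preparations.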

Other observations

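Barcodes left out for 10% or more mitochondrial UMIs had summed ISG levels of 748 CPM in Co-Mac, 893 CPM in VD-Mac and 1255 CPM in hSTSG. Among other genes of the pathway, *Cxcl10* stood at 1002 CPM in the fibroblast-like cluster of the graft and at 141 CPM in the neutrophil-like cluster.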
